A study of Homo sapiens with 6 samples.

Results

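The genes described here are the type I interferon response genes of the line NCI-H1975, established from a human lung carcinoma of the non-small cell kind, measured by bulk RNA sequencing. The list holds 43 genes, all of which were found by symbol among the 60960 features of the deposited table, and 39 of them were among the 12896 features that reached a mean of 1 FPKM (counted fragments divided by gene length and by the library's total) and were tested. The cells carried a control small interfering RNA (siNC, 3 libraries) or a small interfering RNA against GFPT2 (siGFPT2, 3 libraries). Nothing in the labels ties a replicate to a separate culture, so p-values measure the spread between these libraries, which may be technical. The labels state no dose, time after transfection or siRNA sequence, and the extraction text also mentions almonertinib, EGF and knockdown of EGFR, which are in no sample's treatment label.

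Type I interferons are secreted proteins that bind the receptor chains IFNAR1 and IFNAR2. The kinases JAK1 and TYK2 then act on STAT2, which works with IRF9 in the complex ISGF3 to switch on antiviral genes through a DNA element called the interferon-stimulated response element. Many epithelial cells keep a low level of these genes without any added interferon, and double-stranded RNA, including some synthetic siRNAs, can induce them. An untransfected sample is not analysed here, so the levels below are those of siRNA-transfected cells in both groups.

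The response element is visible in the promoters of many of the 43 genes. Its core, searched as GAAA, any 2 bases and GAAA again on both strands (so also TTTC, any 2 bases and TTTC), was found in the 250 bases before at least 1 RefSeq start for 23 of the 35 genes with a promoter entry (65.7%), against 3.71% of all 27305 symbols in the same table. Overlapping matches were allowed, and 12 of the genes held at least 2 before 1 start. The sequences below, from RefSeq on GRCh38.p14, show the core in capitals with its flanks, on the strand of the gene, for 8 genes in which these bases meet no annotated exon of GENCODE 29; they were picked to cover several roles and the range of levels.
ISG15 (chr1:1013370-1013407, + strand; match 113 bases before the start): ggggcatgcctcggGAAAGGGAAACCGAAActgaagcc
IFIT1 (chr10:89392493-89392530, + strand; 116 bases): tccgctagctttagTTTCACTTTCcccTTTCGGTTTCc
IFIT3 (chr10:89332421-89332458, + strand; 94 bases): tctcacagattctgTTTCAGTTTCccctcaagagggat
IFI27 (chr14:94110614-94110651, + strand; 108 bases): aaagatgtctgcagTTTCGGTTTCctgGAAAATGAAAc
IFI6 (chr1:27672325-27672362, - strand; 156 bases): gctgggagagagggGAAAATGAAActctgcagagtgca
IFI44 (chr1:78649757-78649794, + strand; 60 bases): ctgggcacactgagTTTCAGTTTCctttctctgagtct
SAMD9 (chr7:93118092-93118129, - strand; 136 bases): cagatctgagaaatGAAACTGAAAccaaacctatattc
DDX60 (chr4:168318817-168318854, - strand; 88 bases): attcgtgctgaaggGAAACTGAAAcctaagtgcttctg

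In ISG15 2 cores overlap, and IFIT1 and IFI27 hold 2 cores a few bases apart. No match in this window was found for STAT2, IRF9, OAS1, HERC6, CMPK2, ADAR, SAMD9L, DTX3L, TRIM21, XAF1, IFI35 and SP100. IRF7, IFIT2, OAS2, OASL, MX2, USP18, IFITM2 and TRIM22 had no entry. The 23 genes with a match had a median level of 10.5 FPKM and the 12 without one 5.29 FPKM, given as a description with no test. A match is a string of letters and not a measured binding site.

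Across the libraries, depth lay between 21899321 and 27234880 counted fragments, recovered from the steps of the FPKM values, and the epithelial genes that mark the line were high, with KRT19 at 517 and EPCAM at 164 FPKM. Of 12 markers of immune cells, 10 were under 1 FPKM, with CLEC4C and MS4A1 at 0 in every library, and of 9 fibroblast and endothelial markers 8 were under 1 FPKM. The summed level of the immune markers was 3.88 to 5.70 FPKM under siNC and 4.61 to 4.82 under siGFPT2, and that of the fibroblast and endothelial markers 6.96 to 8.61 and 7.53 to 11.0. GFPT2 itself differed little between the groups, at 9.24 ± 0.925 FPKM under siNC and 8.41 ± 0.734 under siGFPT2 (SD, n = 3 each; log2 fold change -0.13, 95% interval -0.43 to 0.17, adjusted p = 0.9999 by limma; exact two-sided permutation p = 0.4, where 0.1 is the smallest possible). The label siGFPT2 therefore names libraries here and not a measured loss of the target. In siNC replicate 3 and siGFPT2 replicate 2, long mRNAs were low and short mRNAs high: the log2 level moved by -0.27 and -0.17 per doubling of mRNA length, against 0.08 to 0.16 in the other 4 libraries. Results are therefore given with all 6 libraries and without these 2. In bulk RNA, fewer cells with a transcript and less transcript per cell cannot be told apart.

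NCI-H1975 cells of both groups expressed most of the 43 listed genes, over a wide range. No sample with added interferon is analysed here, so these levels do not show whether a response was induced. By mean FPKM, 4 genes stood at 100 or more, 19 at 10 or more and 4 under 1, and the 39 tested genes had a median of 8.13 FPKM beside 5.42 for all features tested. The genes rested on 16 to 18973 fragments per library. In the plot of levels, the points of 1 gene lie close together beside the span between genes. Exons of 16 of the 43 genes overlap another gene of GENCODE 29, on either strand, and levels of such genes are uncertain where the partner is expressed.

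**Figure D1:**
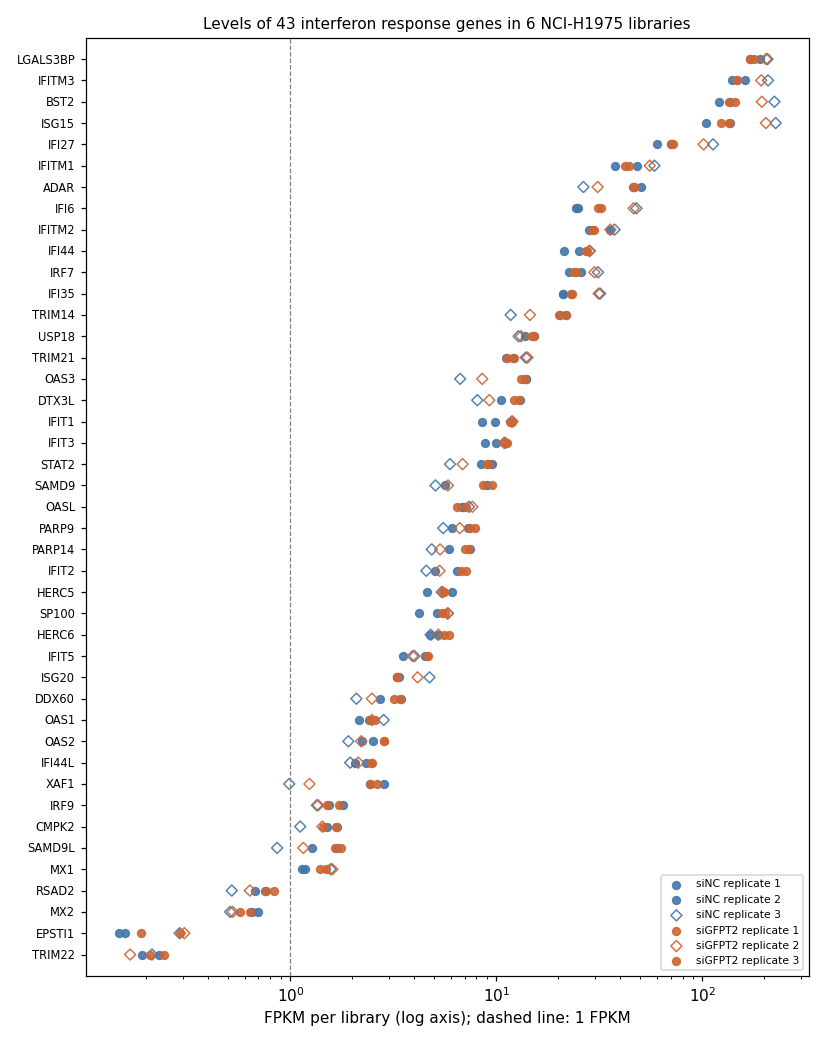
FPKM of the 43 interferon response genes (vertical, ordered by mean level) in each of 6 libraries on a log axis, with siNC in blue, siGFPT2 in orange and open diamonds for siNC replicate 3 and siGFPT2 replicate 2. LGALS3BP, IFITM3, BST2 and ISG15 are above 100 FPKM in every library, RSAD2, MX2, EPSTI1 and TRIM22 are below 1, and the diamonds stand right of the filled points for ISG15 and IFI6 and left of them for ADAR and OAS3.

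The 4 most abundant were LGALS3BP, a secreted glycoprotein that binds galectin-3; IFITM3, a membrane protein that blocks viral fusion; BST2 (tetherin), which holds budding virions at the cell surface; and ISG15, a ubiquitin-like protein. LGALS3BP (ENSG00000108679) held 190, 171 and 207 FPKM in siNC replicates 1, 2 and 3 and 177, 204 and 171 in siGFPT2 replicates 1, 2 and 3. IFITM3 (ENSG00000142089) held 162, 140 and 208 under siNC and 147, 193 and 147 under siGFPT2. BST2 (ENSG00000130303) held 136, 120 and 223 under siNC and 134, 194 and 144 under siGFPT2. In each of these genes siNC replicate 3 and siGFPT2 replicate 2 were the highest libraries, and the groups overlapped. The ranges of the 4 genes overlap as well, so their order is not fixed by these data. IFI27, a small mitochondrial and nuclear membrane protein, followed at 60.3 to 113 FPKM.

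At the other end, TRIM22, an antiviral ubiquitin ligase, held 0.190, 0.230 and 0.213 FPKM under siNC and 0.207, 0.167 and 0.243 under siGFPT2, from 25 to 32 fragments. EPSTI1 held 0.147, 0.158 and 0.290 FPKM under siNC and 0.188, 0.306 and 0.293 under siGFPT2, from 16 to 41 fragments. MX2, a GTPase of the nuclear envelope active against retroviruses, held 0.649, 0.693 and 0.510 under siNC and 0.571, 0.524 and 0.640 under siGFPT2. RSAD2 (viperin), which makes a chain-terminating nucleotide, held 0.519 to 0.836 FPKM. The ranges of TRIM22 and EPSTI1 overlap, and both lie wholly below those of MX2 and RSAD2. All 4 were under the 1 FPKM needed for the test, and their groups overlapped.

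The gene length used in the division moves this order. The length behind the FPKM of OAS1, inferred as the smallest at which its values give whole fragments, was 13021 bases, while the longest protein-coding mRNA of OAS1 in GENCODE 29 is 2416 bases; for MX1 the pair was 17984 and 3470, and for IFI27 4147 and 725. Divided instead by that mRNA length, a choice made after seeing the data, OAS1 went from 2.48 to 13.4, MX1 from 1.39 to 7.23 and IFI27 from 81.2 to 464 on the FPKM scale. All fragments of a gene stay in this value, also any from exons outside that mRNA, so it can be too high. IFITM3 then came first at 584 and IFI27 after it, and OAS1 went from place 32 to place 20 among the 43. IFIT1, SAMD9 and TRIM21 kept their values nearly unchanged (11.0 and 11.0, 7.28 and 7.28, 12.4 and 12.5). The ratio of FPKM between libraries is the same under either length. The test was run on the deposited values alone, and its filter and added 0.1 depend on the level. Per mRNA length, MX2 at 2.86 and RSAD2 at 1.12 would pass the filter that they missed, unless these values are too high.

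**Figure D2:**
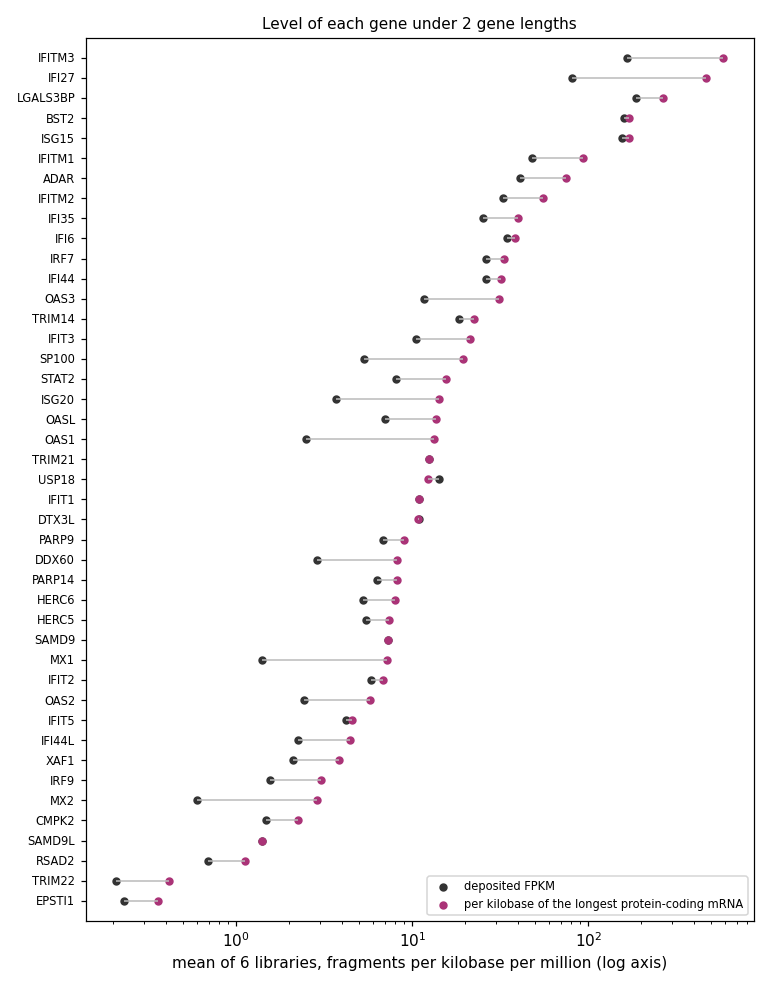
Mean level of each of the 43 genes over 6 libraries on a log axis, as deposited FPKM (dark points) and per kilobase of the longest protein-coding mRNA in GENCODE 29 (purple points), joined by a line. The lines are long for IFI27, OAS1, MX1, MX2 and ISG20 and short for IFIT1, SAMD9 and TRIM21.

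Most of the ligands that start the response were nearly undetected, with IFNE as the highest. All 10 interferon genes listed were under 1 FPKM. IFNA2, IFNK and IFNL2 had 0 fragments, and IFNB1, a type I interferon that epithelial cells can make, had 4 fragments over all 6 libraries, at 0.0539, 0 and 0 FPKM under siNC and 0.0525, 0.0438 and 0.0537 under siGFPT2. IFNE was found in every library, at 0.490, 0.650 and 0.747 FPKM under siNC and 0.507, 0.597 and 0.702 under siGFPT2. It had 128 fragments in all and its groups overlapped, and IFNL1 had 20 fragments in all. None of the 10 genes was tested in the main fit, and such low counts give little basis for comparing the groups.

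Receptor and kinase genes were present, with 6 of 9 tested. IFNAR1 held 2.92, 3.55 and 3.45 FPKM under siNC and 3.92, 3.66 and 3.44 under siGFPT2, and the groups overlapped. IFNAR2 was listed at 0.0995 FPKM and IL10RB, the neighbouring receptor chain, at 0.0607. Both share exons with a read-through gene of GENCODE 29 on the same strand, itself listed at 0, and how fragments that meet more than 1 gene were counted is not given in the sources used here; low levels of these genes are therefore uncertain. JAK1 stood at 7.68 ± 2.01 FPKM under siNC and 8.17 ± 1.38 under siGFPT2, and TYK2 at 24.3 ± 2.97 and 23.0 ± 0.471 (SD, n = 3 each).

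Of the ISGF3 genes on the list, STAT2 stood at 8.13 FPKM and IRF9 at 1.55. STAT2 held 8.43, 9.47 and 5.95 FPKM under siNC and 9.06, 6.85 and 9.03 under siGFPT2. IRF9, the DNA-binding part, held 1.54, 1.81 and 1.34 under siNC and 1.51, 1.36 and 1.72 under siGFPT2, from 118 to 142 fragments. Both genes were lowest in siNC replicate 3 and, within siGFPT2, in replicate 2, and their groups overlapped. IRF9 lay below STAT2 in every library under the deposited length, and per mRNA length the pair stood at 3.02 and 15.5.

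IRF7, the factor that amplifies interferon production and is itself induced by it, was higher, with 25.7, 22.5 and 31.1 FPKM under siNC and 23.8, 29.9 and 24.2 under siGFPT2. The log2 fold changes of STAT2, IRF9 and IRF7 were 0.08 (95% interval -0.41 to 0.57), -0.02 (-0.44 to 0.39) and -0.02 (-0.40 to 0.36). Of the 7 transcription factor genes outside the list, IRF3 stood at 14.9 and IRF1 at 1.78 FPKM, and IRF8, a factor of blood cells, at 0.0210. BCL2L12, at 14.8 FPKM, overlaps IRF3 on the opposite strand, so IRF3 is uncertain. None of the 6 transcription factor genes that were tested passed limma's test, with 3 of 6 fold changes above 0 and a median of -0.01. The 10 inhibitors of the pathway gave 0 calls, 7 fold changes above 0 and a median of 0.05, with the smallest unadjusted p for SOCS1, which blocks the receptor's kinases, at 1.99 ± 0.262 and 1.66 ± 0.237 FPKM (log2 -0.25, -0.66 to 0.16).

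Between siGFPT2 and siNC, none of the 39 tested genes passed limma's test at an adjusted p of 0.05, as none of the 12896 features did (0% called, smallest adjusted p = 0.9999). None of the 39 had an unadjusted p under 0.05 either, beside 0.651% of all features (0.326% higher and 0.326% lower in siGFPT2). The fold changes were small: 32 of 39 lay above 0 and 7 below, the range was -0.09 to 0.30 on the log2 scale, and the median was 0.08, beside 61.4% above 0 and a median of 0.03 for all features tested. The count above 0 was 23 of 39 with each library centred on its median, 29 with quantile normalization and 32 with limma-voom on recovered reads. The medians under these scalings were 0.03, 0.06 and 0.08, beside -0.02, 0.0001 and 0.03 for all features tested. Median centring moves all fold changes by the same amount, so it leaves their differences from each other unchanged. The 95% interval excluded a 2-fold difference in either direction for 38 of 39 genes, the exception being XAF1, and a 1.5-fold difference for 23. Over all 12896 features these counts were 11962 and 7883.

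**Figure D3:**
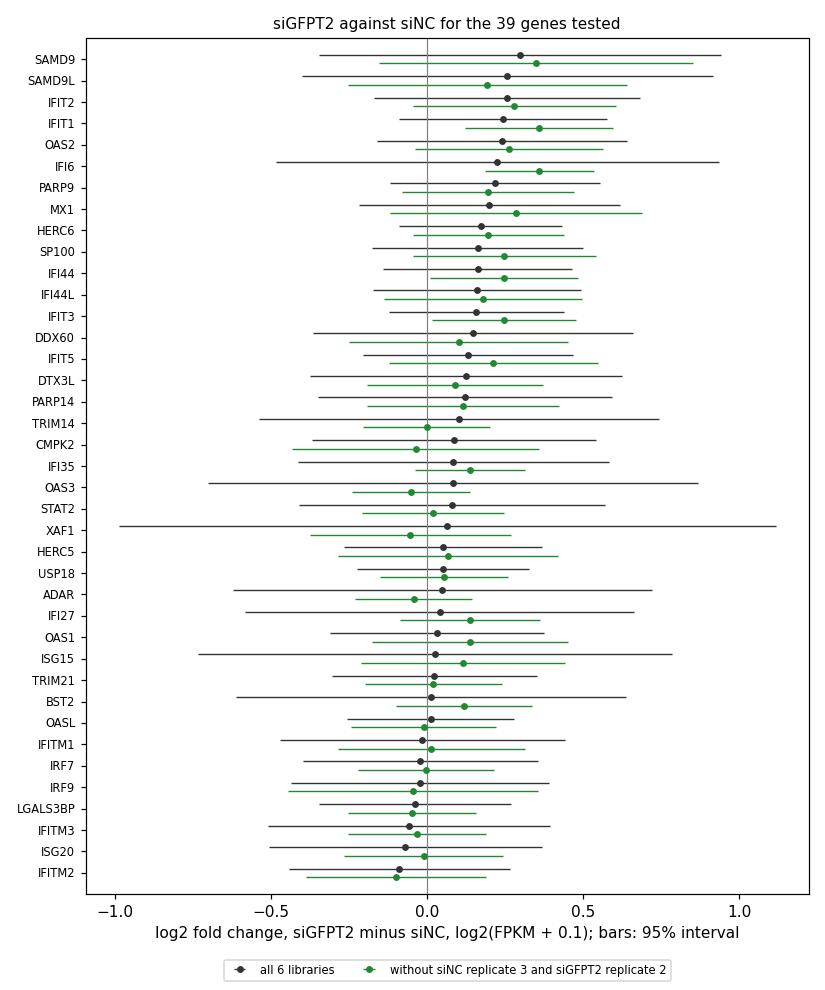
Log2 fold change of siGFPT2 against siNC (horizontal) for the 39 genes tested, with 95% intervals of the limma fit, for all 6 libraries (dark) and without siNC replicate 3 and siGFPT2 replicate 2 (green). All dark intervals cross 0, and the green intervals of IFIT1, IFIT3, IFI6 and IFI44 do not.

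The groups did not overlap for 1 gene with a higher level in siGFPT2, HERC6, and for 0 with a lower level, beside 2.16% and 1.36% of all features. HERC6, a relative of the ligase that attaches ISG15, held 4.75, 5.21 and 4.80 FPKM under siNC and 5.55, 5.22 and 5.88 under siGFPT2. The groups were parted only by the step from siNC replicate 2 at 5.21 to siGFPT2 replicate 2 at 5.22 FPKM, on 659 and 822 fragments. Its log2 fold change was 0.17 ± 0.11 (SE; -0.09 to 0.43; unadjusted p = 0.165, adjusted p = 0.9999 by limma).

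The IFIT proteins bind viral RNA that lacks the marks of host mRNA. All 4 had a fold change above 0 in every fit that tested them, with a median of 0.20 and 0 of 4 called; IFIT5 was not in the fit with a minimum mean of 5 FPKM. IFIT1 (ENSG00000185745) held 8.52, 9.83 and 11.9 FPKM under siNC and 11.6, 12.0 and 11.9 under siGFPT2, from 870 to 1504 fragments. The siGFPT2 libraries were close together, while siNC replicates 1 and 2 lay below them and siNC replicate 3 among them. Its log2 fold change was 0.24 ± 0.14 (-0.09 to 0.58; unadjusted p = 0.128, the smallest of the 39; adjusted p = 0.9999 by limma). IFIT3, which stabilizes IFIT1, ranged from 8.79 to 11.0 FPKM under siNC and from 10.9 to 11.3 under siGFPT2, and the groups overlapped (log2 0.16). For IFIT2 and IFIT5 the log2 fold changes were 0.26 and 0.13. LIPA overlaps IFIT2 on the opposite strand and was at 16.8 FPKM, and strand in the counting is not given in the sources used here, so IFIT2 is uncertain.

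The OAS enzymes make the 2-5A messenger that activates RNase L, and OASL is a relative without that activity. OAS1 held 2.40, 2.15 and 2.84 FPKM under siNC and 2.43, 2.49 and 2.58 under siGFPT2, with siNC replicate 2 lowest and siNC replicate 3 highest. OAS2 stood at 2.21 ± 0.296 and 2.63 ± 0.371 FPKM (log2 0.24, -0.16 to 0.64). OASL was the steadiest of the 39 genes, at 6.43 to 7.64 FPKM, with a coefficient of variation of 6.12% over the 6 libraries. OAS3 had one of the widest spreads, at 14.0, 13.9 and 6.67 under siNC and 13.7, 8.54 and 13.1 under siGFPT2, with the low values in the 2 libraries that stand apart. The fold changes of OAS1 and OASL were above 0 with all libraries as deposited (0.03 and 0.01) and below 0 with median centring and with quantile normalization.

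MX1, a GTPase that traps viral nucleocapsids, held 1.14, 1.18 and 1.57 FPKM under siNC and 1.39, 1.60 and 1.48 under siGFPT2, from 454 to 783 fragments. The groups overlapped through siNC replicate 3, and the log2 fold change was 0.20 (-0.22 to 0.62).

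ISG15 and the proteins that attach and remove it differed in spread more than in group. ISG15 (ENSG00000187608) held 136, 104 and 227 FPKM under siNC and 123, 203 and 135 under siGFPT2, a 2.17-fold range on 1978 to 4811 fragments. The high libraries were siNC replicate 3 and siGFPT2 replicate 2, 1 in each group, and the log2 fold change was 0.02 with a wide interval (-0.74 to 0.78). USP18, which removes ISG15 and also blocks the interferon receptor, was steady at 15.1, 13.8 and 12.8 under siNC and 14.8, 13.2 and 15.3 under siGFPT2 (log2 0.05). HERC5, the ligase that attaches ISG15 to new proteins, stood at 5.38 ± 0.762 and 5.54 ± 0.0488 FPKM (log2 0.05). UBA7 and UBE2L6, which activate and carry ISG15 and are outside the list, stood at 13.2 and 36.7 FPKM. With median centring the fold changes of ISG15, HERC5 and USP18 were below 0.

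Among the membrane proteins, 1 of 4 fold changes was above 0. IFITM1, IFITM2 and IFITM3 had -0.02, -0.09 and -0.06 on the log2 scale and BST2 0.01, which was below 0 with median centring. The IFITM genes are near copies of each other that lie side by side, and exons of IFITM1 and IFITM2 overlap on the same strand in GENCODE 29, so their separate levels of 47.6, 32.7 and 166 FPKM are uncertain.

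Genes of nucleotide and RNA metabolism gave 0 calls among the 3 tested. ADAR, which edits adenosines in double-stranded RNA, stood at 46.0, 50.1 and 26.4 FPKM under siNC and 46.5, 31.0 and 46.7 under siGFPT2. Its low libraries were again siNC replicate 3 and siGFPT2 replicate 2, and the log2 fold change was 0.05 (-0.62 to 0.72). CMPK2, a nucleotide kinase next to RSAD2 on the opposite strand, had 0.09 and the exonuclease ISG20 had -0.07. Exons of CMPK2 and RSAD2 overlap, so both are uncertain.

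The large cytosolic proteins had a median of 0.26, with 3 of 3 above 0 and 0 called, and 0.19 without siNC replicate 3 and siGFPT2 replicate 2. SAMD9, a translation inhibitor active against poxviruses, had the highest log2 fold change of the 39, 0.30 (-0.35 to 0.94). It held 5.65, 8.97 and 5.06 FPKM under siNC and 8.65, 5.82 and 9.54 under siGFPT2, so the groups overlapped over most of their ranges. Its neighbour SAMD9L had 0.26 (-0.40 to 0.92), and the helicase-like DDX60 had 0.15 (-0.37 to 0.66).

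PARP9 and DTX3L form a complex that modifies histones and viral proteins, and PARP14 is a related ADP-ribosyltransferase. All 3 were above 0, with log2 fold changes of 0.22, 0.12 and 0.12. PARP9 held 6.09, 7.31 and 5.52 FPKM under siNC and 7.45, 6.63 and 7.85 under siGFPT2, and the groups overlapped (-0.12 to 0.55; unadjusted p = 0.171, adjusted p = 0.9999 by limma). PARP9 and DTX3L start head to head and their exons overlap on opposite strands.

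TRIM14, a mitochondrial adaptor, and TRIM21, the cytosolic antibody receptor, had log2 fold changes of 0.10 and 0.02. NANS, at 13.1 FPKM, overlaps TRIM14 on the opposite strand, so TRIM14 is uncertain. Of the small organelle proteins, IFI6, which guards the endoplasmic reticulum against flavivirus replication, had 0.22 (-0.49 to 0.93) and IFI27 0.04, and XAF1, an antagonist of the apoptosis inhibitor XIAP, had 0.06 with the widest interval of all (-0.99 to 1.12). XAF1 held 2.43, 2.84 and 0.988 FPKM under siNC and 2.44, 1.24 and 2.62 under siGFPT2. The remaining log2 fold changes were 0.16 for IFI44, 0.16 for IFI44L, 0.16 for SP100, 0.08 for IFI35 and -0.04 for LGALS3BP. With median centring the fold changes of TRIM21, IFI27 and ADAR were below 0, and with quantile normalization that of XAF1 was.

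The genes varied between libraries by more than counting error. Their level in siNC replicate 3 and siGFPT2 replicate 2, against the other 4 libraries, went with mRNA length. The coefficient of variation over 6 libraries had a median of 15.6% for the 39 genes, beside 14.7% for all features tested, while counting error alone would give a median of 2.93%. Of the 12 tested genes with a longest mRNA under 2000 bases, 11 were higher in siNC replicate 3 and siGFPT2 replicate 2 than in the other 4 libraries on average, with a median log2 difference of 0.42, beside 0.37 for the 2306 features of that length. IRF9 was the exception, at -0.26. Of the 13 genes with 4000 bases or more, 1 was higher, IFIT1 (0.20), and the median was -0.46, beside -0.39 for 4126 features. Between these limits the 14 genes had a median of 0.05, beside 0.01 for 4247 features. Over the 39 genes, Spearman's rho of the difference with mRNA length was -0.80, and over all features tested -0.74. The points share the same 6 libraries, and the value is a description. The 2 libraries were set apart for their length slopes over these same features, so a negative rho follows from that choice.

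**Figure D4:**
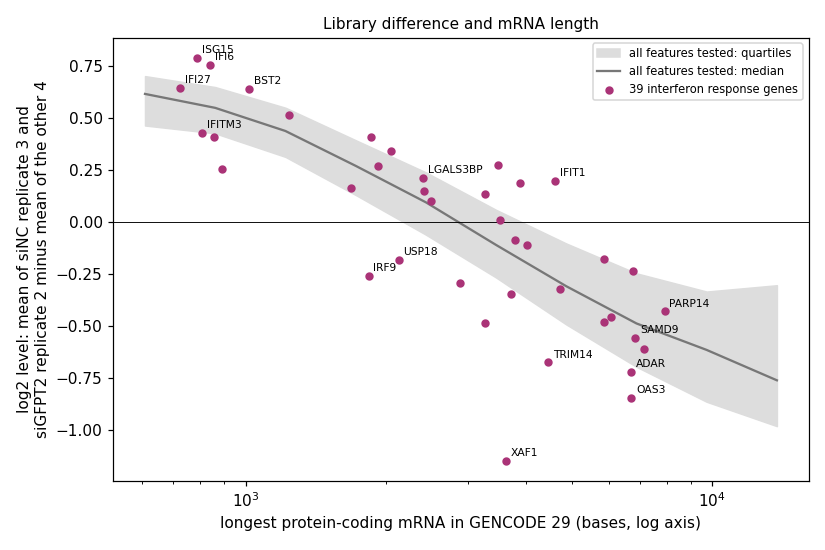
Mean log2 level in siNC replicate 3 and siGFPT2 replicate 2 minus that in the other 4 libraries (vertical) against the longest protein-coding mRNA in GENCODE 29 (horizontal, log axis), for the 39 genes tested (purple) and all features tested (line, median per bin of length; band, quartiles). Short genes such as ISG15 (0.79) and IFI6 (0.76) are above 0 and long genes such as OAS3 (-0.85) and ADAR (-0.72) below, as is the line, while XAF1 (-1.15) lies below the band.

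In both libraries together, 16 of the 39 genes exceeded all 4 others and 13 were below all 4, beside 29.8% and 35.4% of all features. The extremes were ISG15 at 0.79 and XAF1 at -1.15, whose mRNA of 3623 bases is of middle length. What made these libraries differ was not tested.

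Without siNC replicate 3 and siGFPT2 replicate 2 the intervals narrowed and still no gene was called. Limma on the remaining 2 against 2 libraries called 0 of 39 and 0 of 12896 features (0%), with a smallest adjusted p of 0.72 among the 39. At an unadjusted p under 0.05 there were 4 of 39 genes, all higher in siGFPT2, beside 5.82% of features, 3.99% higher and 1.84% lower. The fold changes were above 0 for 27 of 39, beside 57.0% of features, with a median of 0.11 beside 0.03. The groups did not overlap for 15 genes higher and 1 lower (OAS3) in siGFPT2, beside 23.9% and 18.0% of features.

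The 4 genes were IFI6, IFIT1, IFIT3 and IFI44, the last an interferon-induced cytosolic protein. IFI6 (ENSG00000126709; chromosome 1, from 27666061 to 27672218, minus strand, GENCODE 29 on GRCh38) held 24.3 and 24.8 FPKM in siNC replicates 1 and 2, 31.0 and 32.0 in siGFPT2 replicates 1 and 3, and 47.8 and 46.3 in the libraries left out. In siGFPT2 it was thus higher by 0.36 on the log2 scale (0.18 to 0.53; unadjusted p = 0.00228, adjusted p = 0.72 by limma) without them. For IFIT1 the value was 0.36 (0.12 to 0.60; unadjusted p = 0.00998), for IFIT3 0.24 (0.01 to 0.48; 0.0413) and for IFI44 0.25 (0.01 to 0.48; 0.0445), each with the same adjusted p. The signs of 7 genes turned when these libraries were left out: OAS3, OASL, CMPK2, ADAR, TRIM14 and XAF1 went below 0 and IFITM1 above.

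All 6 libraries were also fitted with each library's length slope as a covariate. Again 0 of 39 genes were called, and 6 had an unadjusted p under 0.05, all higher in siGFPT2, beside 4.30% of features in either direction and 2.93% in that one (limma adjusted p = 0.773 for each). They were IFI6 at 0.28 (0.11 to 0.44), IFIT1 at 0.26 (0.04 to 0.48), IFIT2 at 0.23, OAS2 at 0.22, PARP9 at 0.20 and HERC6 at 0.16. IFI6 and IFIT1 were the genes that had an unadjusted p under 0.05 in both of these fits and in the fit without siNC replicate 3 alone (0.54 and 0.37). In that last fit they were 2 of 39, both higher, beside 4.03% of features in either direction and 3.26% higher. These fits all leave out siNC replicate 3 or adjust for its length slope, so they are not separate evidence. In siNC replicate 3, IFI6 held 47.8 and IFIT1 11.9 FPKM. Over the 17 fits other than the main one, the log2 fold change ranged from 0.04 to 0.54 for IFI6 and from 0.13 to 0.37 for IFIT1.

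Interferon-induced genes outside the 43, written down as a list, gave a smaller median. Of 47 with a row in the table, 41 were tested, 0 were called and 25 had a fold change above 0, beside 61.4% of all features. The median of the 41 was 0.02 and went to -0.03 with median centring. For all features tested, the median went from 0.03 to -0.02 with the same centring. Without the 2 libraries 22 of 41 were above 0 and the median was 0.01, and 1 had an unadjusted p under 0.05, B2M, the light chain of MHC class I (0.20, 0.01 to 0.40; unadjusted p = 0.0424 by limma). The smallest unadjusted p with all libraries belonged to IFI16, a DNA sensor, at 23.4 ± 3.10 FPKM under siNC and 27.4 ± 0.978 under siGFPT2 (log2 0.23, -0.06 to 0.53), and to NT5C3A, a nucleotidase, at 6.64 ± 1.35 and 7.92 ± 0.490 (0.27, -0.14 to 0.68). B2M stood at 223 FPKM, and the chemokines CXCL10 and CXCL11, which are strongly induced by added interferon, at 0.0909 and 0.119 FPKM. Of the sensors of double-stranded RNA, IFIH1 stood at 3.25 FPKM (log2 0.15, -0.18 to 0.49), EIF2AK2 at 8.34 (0.19, -0.34 to 0.73) and DHX58, a regulator of the others, at 6.63 (-0.02, -0.29 to 0.24). RIGI was at 0.119 FPKM and not tested. GPATCH11, at 5.56 FPKM, overlaps EIF2AK2 on the opposite strand, so EIF2AK2 is uncertain.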

How the data were processed

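Per the submitters' processing notes the authors used HISAT2, featureCounts and DESeq2, with no versions; build, annotation, strand setting and the handling of fragments meeting several genes were not given in the sources used here. The authors deposited FPKM values, 1 column per library. Symbols came from a table of gene names, and exons, mRNA lengths and coordinates from GENCODE 29 (GRCh38). Reads were recovered from the FPKM steps: 19937 of 36981 features above 0 gave whole reads (tolerance 0.0001) at the GENCODE 29 exon length, and the others at the smallest length that did, which can be too short and understate reads. Promoter sequences are RefSeq's (GRCh38.p14).

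Group differences were tested with limma 3.58.1 (R 4.3.3). Values were log2(FPKM + 0.1), which understates changes of low genes. The fit ran with group as the only term, a mean-variance trend, two-sided, over features averaging 1 FPKM or more, and Benjamini-Hochberg adjustment over all 12896. The limma fit was first run on simulated counts. These held no length slope between libraries, unlike the data here, so they do not show how the fit handles that slope. The genes, lists and the 2 libraries left out were chosen with earlier results of these data known. Every listed gene was to be named, with values in all libraries for the 3 highest, the 3 lowest, the 3 with the smallest p, STAT2, IRF9, IRF7, IFIT1, ISG15, MX1 and OAS1; other genes given in full were chosen after their values were seen. Alternatives were other pseudocounts, filters, scalings, limma-voom, a replicate block, a length covariate and libraries left out.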

Additional observations from a re-analysis of the deposited data

How the results depend on the processing

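In 17 other fits, 0 of the interferon genes and 0 of all features were called with limma, and the smallest adjusted p of an interferon gene was 0.72. The number of interferon genes with an unadjusted p under 0.05 was 0 except with the length covariate (6), with both siNC replicate 3 and siGFPT2 replicate 2 left out (4) and with the first of them left out (2). For all features that count was 84 with all libraries, and it was 754 with no filter (36981 features tested), 16 with a minimum mean of 5 FPKM (6781 tested), 554 with the length covariate, 751 without both libraries, 520 and 161 when siNC replicate 3 or 2 was left out, and 54 and 50 when siGFPT2 replicate 1 or 3 was. The median log2 fold change of the interferon genes (0.08) stayed above 0 in every fit. With median centring it was 0.0298, beside -0.0198 for all features tested. With 1 library left out it was 0.0657 to 0.171, the highest when siNC replicate 2 and 0.148 when siGFPT2 replicate 2 was left out. The count above 0 (32 of 39) was 26 to 33 with 1 library left out, 23 of 28 with a minimum mean of 5 FPKM and 34 of 43 with no filter. GFPT2's log2 fold change was -0.21 to -0.06 with 1 library left out. Of the 39 genes, 15 kept 1 sign in every fit that tested them, 14 above 0 and IFITM2 below (IFIT5, OAS2, MX1, SAMD9L and IFI44L were not in the fit with a minimum mean of 5 FPKM), and 24 changed sign in at least 1; the cause was not tested.

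Deviations of same-numbered libraries from their group means correlated at 0.473, -0.719 and -0.57 over features. For siNC replicate 3 and siGFPT2 replicate 2, which share a negative length slope, the value was 0.792. That slope enters all these values, so they cannot show whether equal numbers mark a shared culture or day. The replicate block left the median at 0.08 and the calls at 0, with 63 features at an unadjusted p under 0.05. TRIM22 and EPSTI1 rested on at most 41 fragments a library. Counting error alone would give them coefficients of variation of 18.6% and 19.2%, so small differences in them were not detectable at this depth. They were tested only in the fit with no filter, which called 0 of 43 interferon genes.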
